A study of Mus musculus with 29 samples.

Results

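Osteoblastic cells (OBC) are the bone-forming cells of the marrow niche, the surroundings in which blood stem cells are kept. The libraries compared here are 6 of the 29 in the series and were chosen by their labels alone. They are OBC_WT replicates 7, 8 and 9, from a wild-type (WT) niche, and OBC_Wnt5a replicates 10, 11 and 12, from a niche haploinsufficient for Wnt5a, which has 1 working copy of the gene. The series profiled blood stem and progenitor cells after transplantation and, besides OBC, endothelial (EC) and mesenchymal (MSC) niche cells, so that the comparison bears on how niche cells differ when WNT5A is reduced. Every OBC library is labelled with the strain 129Ly5.1. Flow cytometry was used to collect the cells in lysis buffer, and each library counts unique molecular identifiers (UMIs), tags that mark single cDNA molecules. The labels do not give the gate, age or sex, how the Wnt5a allele was made, whether the niche cells came from transplanted hosts, or whether libraries came from separate animals. The p-values therefore measure only the spread between libraries, which may be technical. For the edgeR tests that spread was estimated from all 18 niche libraries together, unless the OBC libraries are said to be fitted alone.

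WNT5A is a secreted ligand that acts mainly through Frizzled, ROR and RYK receptors on the cytoskeleton, calcium and JNK signalling rather than through β-catenin. Osteoblasts secrete type I collagen, built from the products of Col1a1 and Col1a2, and load it with acidic proteins that bind mineral, among them osteopontin (Spp1) and bone sialoprotein (Ibsp). Their mitochondria carry a small circular genome that encodes both ribosomal RNAs of the organelle, its transfer RNAs and a few subunits of the respiratory chain, while the other subunits are encoded in the nucleus.

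Within each genotype, every OBC library held fewer UMIs than any EC or MSC library. Totals were 26088, 29772 and 10635 UMIs in WT and 17874, 17577 and 13726 in Wnt5a, so that 1 UMI is worth 33.6 to 94.0 CPM (UMIs scaled to a library total of 1000000). Of 18194 genes, 10599 had at least 1 UMI in OBC and 1099 passed the filter on low counts over the 18 niche libraries. WT replicate 9 and Wnt5a replicate 12, the shallowest of their groups, resembled the other libraries least. As a description across 1436 genes, Pearson correlations of log2 CPM were 0.628 to 0.679 for WT replicate 9, 0.628 to 0.698 for Wnt5a replicate 12 and 0.718 to 0.786 among the other 4. Wnt5a itself was not analysed here in the niche libraries, so the genotype labels were not checked against its level.

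Genes of the bone matrix marked these libraries, while several defining osteoblast genes were barely detected. In WT, Col1a1, Ibsp and Spp1 were higher in OBC than in the mean of EC and MSC, by 5.34 ± 0.38 (SE), 7.19 ± 0.58 and 5.86 ± 0.57 on the log2 scale (edgeR quasi-likelihood test, largest adjusted p 8.84e-12 for these genes). In that contrast 16.8% of the genes tested were called higher and 19.0% lower. Bone matrix was not the only mark. The 10 osteoblast markers summed to a mean of 8719 CPM in WT OBC. The 5 markers of stromal reticular cells, the CXCL12-rich marrow stroma, summed to 7938 CPM there, 1390.1 in WT EC and 2157 in WT MSC. Neutrophil markers summed to 3633, 371 and 1207 CPM in the same order. Runx2 had 0, 2 and 1 UMIs in WT and 0 in each Wnt5a library, and Sp7 (osterix) had 1 UMI in each WT library and 1, 0 and 0 in Wnt5a. Alpl, the alkaline phosphatase of mineralising cells, had 7, 3 and 0 UMIs against 0, 1 and 1. Bglap (osteocalcin) had 20, 7 and 0 against 1, 3 and 0. Alcam, a surface protein often used to sort osteoblastic cells, had no UMI in any of the 6 libraries, where 3 UMIs correspond to 101 to 282 CPM.

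In Wnt5a OBC, type I collagen, osteopontin and most of the measured mitochondrial genome were lower than in WT OBC. Of 1099 genes tested, 14 passed at a Benjamini-Hochberg adjusted p under 0.05 (1.27%), 13 of them lower (1.18%) and 1 higher (0.0910%). Of the 13 lower genes, 7 lie in the mitochondrial genome, 2 are nuclear copies of mitochondrial sequence, 3 belong to the osteoblast matrix list and the remaining 1 is Stat3. The gene that rose is Rps9. At an unadjusted p under 0.05, 92 genes differed, and over all genes 555 log2 fold changes (50.5%) were negative and 544 (49.5%) positive, with a median of -0.01. In 13 of the 14 genes the values of the WT and Wnt5a libraries did not overlap. The 14 were selected by a test on these same libraries, so this separation follows largely from the selection and is no separate support. Among all genes tested, 5.73% had every Wnt5a library below every WT library and 8.46% had every one above. The count of lower genes was 7 without Wnt5a replicate 11, 5 without Wnt5a replicate 12, 3 without WT replicate 7 and 4 without WT replicate 8. With the mitochondrial genes and their nuclear copies taken out before the fit, an alternative chosen after seeing the data, no gene passed with edgeR (37 lower and 43 higher at an unadjusted p under 0.05). The 5 other genes of the 14 kept their direction there, Col1a1 at -1.90 (adjusted p = 0.0777) and Spp1 at -2.56 (0.118), and the osteoblast matrix list had a median log2 fold change of -1.73. Fitting the 6 OBC libraries alone left 176 genes to test and called 14, among them Ibsp, mt-Co1 and Tmem14c but not Rps9.

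**Figure D1:**
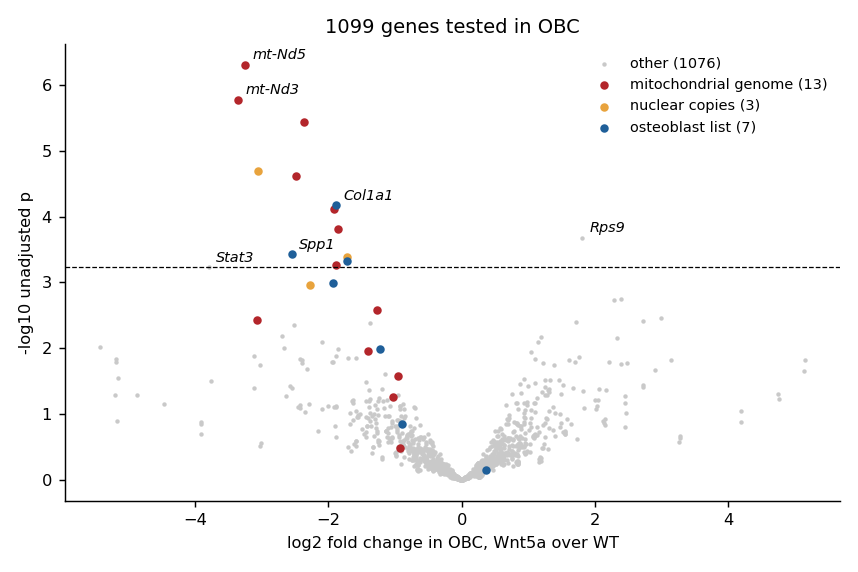
Log2 fold change in OBC (Wnt5a over WT, x axis) against -log10 of the unadjusted edgeR p (y axis) for the 1099 genes tested, coloured by class; the dashed line marks the largest p among the 14 genes past the test. Above the line, the points to the left are 7 mitochondrial genes, 2 nuclear copies, 3 genes of the osteoblast list and Stat3, and the only point to the right is Rps9.

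Col1a1 (ENSMUSG00000001506, chr11:94936224-94953042 of GRCm38, plus strand) encodes the α1 chain of type I collagen. It was measured at 4523, 5206 and 1975 CPM in the WT libraries and 1231, 1707 and 583 CPM in the Wnt5a libraries. The lowest WT library, replicate 9, remained above the highest Wnt5a library, replicate 11. Means were 3901 ± 1703 (SD, n = 3) and 1173 ± 564 CPM, and the log2 fold change was -1.89 ± 0.43 (SE), a 3.71-fold lower level (edgeR, adjusted p = 0.0122). Its adjusted p was 0.143 without Wnt5a replicate 12, 0.0884 without WT replicate 7 and 0.162 without WT replicate 8.

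Col1a2 (ENSMUSG00000029661, chr6:4504814-4541544, plus strand), which encodes the other chain of the same collagen, was measured at 6746, 5609 and 1410.4 CPM in WT and 1511, 2162 and 1093 CPM in Wnt5a. Here the groups overlapped, because WT replicate 9 was below 2 of the Wnt5a libraries. The log2 fold change was -1.72 ± 0.45 (edgeR, adjusted p = 0.0430). This call rested on most single libraries: the adjusted p was 0.140, 0.0537 and 0.286 without Wnt5a replicates 10, 11 and 12, and 0.313 and 0.270 without WT replicates 7 and 8, but 2.85e-04 without WT replicate 9.

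Spp1 (ENSMUSG00000029304, chr5:104435118-104441050, plus strand) encodes osteopontin, a secreted phosphoprotein of bone matrix that also binds integrins. It was at 1035, 1209 and 564 CPM in WT and 168, 228 and 146 CPM in Wnt5a, so the groups did not overlap. These are 27, 36 and 6 UMIs against 3, 4 and 2. Spp1 passed the filter on low counts only through the WT OBC libraries. The log2 fold change was -2.55 ± 0.67, a 5.86-fold lower level (edgeR, adjusted p = 0.0411). Leaving out any library other than WT replicate 9 gave an adjusted p between 0.0744 (without Wnt5a replicate 11) and 0.395 (without WT replicate 8). Its adjusted p was 0.101, 0.143 and 0.230 without Wnt5a replicates 10 and 12 and WT replicate 7. The 250 bases before its first RefSeq start (GRCm38.p6, chr5:104434861-104435110, plus strand) are shown because Spp1 is the mineral-binding gene past the test. Capitals mark matches on either strand to 3 motifs: CCAAT, the core of the CCAAT box, ACCACA, which is bound by RUNX factors, and TATAAA, the TATA box.
Spp1: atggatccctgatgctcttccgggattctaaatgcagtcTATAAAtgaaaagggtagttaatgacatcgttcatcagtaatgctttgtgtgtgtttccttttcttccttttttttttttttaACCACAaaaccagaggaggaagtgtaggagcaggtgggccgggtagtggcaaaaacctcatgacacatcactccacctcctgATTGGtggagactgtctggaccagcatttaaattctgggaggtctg

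Each of the 3 motifs occurred once in this window, with no overlap. The TATAAA match lies toward the window's first base, the end far from the RefSeq start. Of 32851 RefSeq promoter windows of 250 bases, 33.8% held CCAAT, 14% ACCACA and 12.4% TATAAA on either strand. Of the other genes here with an entry, the Col1a2 window held 1 CCAAT match and neither of the others, and the Ibsp window held 1 CCAAT and 1 TATAAA match. A match is a run of letters and not a measured site.

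Ibsp (ENSMUSG00000029306, chr5:104299171-104311469, plus strand) lies 123648 bases upstream of Spp1 and encodes bone sialoprotein. It had 31, 45 and 7 UMIs in WT and 8, 9 and 0 in Wnt5a. Means were 1119 ± 431 and 319.9 ± 279 CPM, and the libraries did not overlap between groups. Without the WT OBC libraries Ibsp would not have passed the filter on low counts, so this separation is no separate support. Its log2 fold change of -1.93 ± 0.55 did not pass (edgeR, adjusted p = 0.0755). The adjusted p was 0.0186 without WT replicate 9 and 0.0371 when the OBC libraries were fitted alone.

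The osteoblast matrix and mineral list has 23 genes, of which 20 are in the table and 7 were tested, 6 of them with a negative log2 fold change. Among those 6, Spp1 and Ibsp passed the filter on low counts only because of the WT OBC libraries. Their direction is therefore partly set by the filter. The median over the 7 was -1.72, beside -0.01 over all genes, and the same members had medians of -0.13 in EC and -0.25 in MSC. Some members were barely detected there. In WT EC and WT MSC, Ibsp averaged 2.83 and 15.5 CPM and Spp1 14.1 and 19.8 CPM, too low to resolve a change. Col1a1, Col1a2 and Spp1 passed lower with edgeR, and 1 gene of the list passed with each of DESeq2 and limma voom. Of the others, named after their values were seen, Sparc (osteonectin, a collagen-binding protein) had 92, 39 and 17 UMIs against 8, 23 and 18, with a log2 fold change of -1.22 ± 0.46 (adjusted p = 0.333). Mgp, an inhibitor of calcification, was at -0.89 (0.704) and Serpinf1, the PEDF gene, at 0.37 (0.949). The sum of the 10 osteoblast markers was 11499.5, 9674 and 4984 CPM in WT and 2406, 4039 and 2258 CPM in Wnt5a, and the groups did not overlap. Most of it is Col1a1, Ibsp, Spp1 and Sparc, so it repeats genes given above. In each library 2 to 5 of the 10 markers were at 0. In bulk libraries, fewer osteoblasts in the sort and less RNA per osteoblast cannot be told apart.

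**Figure D2:**
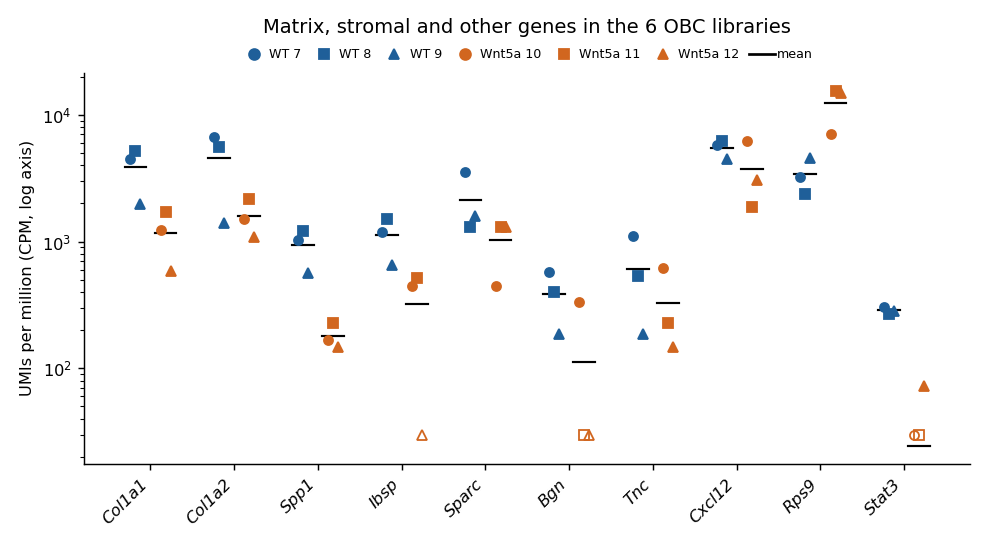
CPM (log axis) of 10 genes in each OBC library, with WT replicates in blue, Wnt5a replicates in orange and the mean of each group as a bar; open symbols at the lower edge are libraries with 0 UMIs. Col1a1 lay at 1975 CPM or more in WT and at 1707 or less in Wnt5a, the groups overlapped for Col1a2, Sparc, Bgn, Tnc and Cxcl12, and Rps9 was higher in every Wnt5a library.

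Of the osteoblast transcription factors and hormone receptors, 3 of 16 were tested and none passed with edgeR, DESeq2 or limma voom, nor at an unadjusted p under 0.05. Pth1r, the parathyroid hormone receptor, had 10, 9 and 2 UMIs in WT and 2, 6 and 0 in Wnt5a, a log2 fold change of -1.07 ± 0.90 (edgeR, adjusted p = 0.795). Collagen processing and secretion genes had 5 of 24 members tested, all 5 with negative log2 fold changes and a median of -0.75, and none passed by any of the 3 tools or at an unadjusted p under 0.05. They include Serpinh1, the collagen chaperone HSP47, at 20, 17 and 4 UMIs against 9, 3 and 10, and Pcolce, an enhancer of procollagen cleavage, at 10, 2 and 1 against 2, 0 and 2. Of other collagens and matrix genes, 8 of 27 were tested, 6 were negative and none passed by any of the 3 tools, with 2 lower at an unadjusted p under 0.05. Those are Bgn (biglycan, a small proteoglycan of bone), with 15, 12 and 2 UMIs against 6, 0 and 0, and Timp2, an inhibitor of matrix proteases, with 4, 7 and 1 against 1, 0 and 0. Col3a1 and Dcn, abundant in fibroblasts, were at 0.22 and 0.09 on the log2 scale (adjusted p = 0.965 and 0.987). At these UMI numbers a difference in such genes was not detectable unless large.

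The mitochondrial genome held 7 of the 14 genes that passed. All 13 tested genes of the 27 in the table had negative log2 fold changes in OBC, from -3.36 to -0.92 with a median of -1.89, and 7 passed. In 12 of the 13, every Wnt5a library was below every WT library, where the share over all genes is 5.73%. Among the 12, mt-Nd5 and mt-Ta passed the filter on low counts only through the WT OBC libraries. Their direction and separation are therefore no separate support. By product, all 5 tested subunits of complex I (NADH dehydrogenase) passed, as did mt-Cytb of complex III and the small ribosomal RNA mt-Rnr1. The complex IV subunit mt-Co1, the large ribosomal RNA mt-Rnr2 and the 4 tested transfer RNAs did not. The genes mt-Co2, mt-Co3, mt-Atp6 and mt-Atp8 are not among the 27, so nothing is known of them here.

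Nuclear copies matter for these counts, since stretches of mitochondrial DNA have been inserted into chromosomes and reads from gene and copy may not be told apart. Gm13341 (chr2:22587291-22587962), Gm13340 (chr2:22588103-22589647) and Gm13339 (chr2:22590024-22590533) are adjacent pseudogenes on the minus strand of chromosome 2. In local alignments of GENCODE transcripts, Gm13340 matched mt-Co1 at 1508 of 1545 bases (97.6%), Gm13339 matched mt-Nd2 at 493 of 510 (96.7%) and Gm13341 matched mt-Co2 at 656 of 672 (97.6%). The last 100 bases of the first and second pair are shown because UMI libraries of this kind read mainly the 3′ ends of transcripts. Capitals mark the 3 positions in each pair at which gene and copy differ.
mt-Co1 (GRCm38, chrM:6773-6872, plus strand): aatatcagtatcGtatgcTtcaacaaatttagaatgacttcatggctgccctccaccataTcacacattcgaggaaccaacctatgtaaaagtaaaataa
Gm13340 (chr2:22588103-22588202, minus strand): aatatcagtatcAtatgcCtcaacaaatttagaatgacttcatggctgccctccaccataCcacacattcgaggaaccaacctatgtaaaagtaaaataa
mt-Nd2 (chrM:4852-4951, plus strand): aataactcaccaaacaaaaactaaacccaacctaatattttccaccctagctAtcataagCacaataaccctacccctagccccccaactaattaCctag
Gm13339 (chr2:22590024-22590123, minus strand): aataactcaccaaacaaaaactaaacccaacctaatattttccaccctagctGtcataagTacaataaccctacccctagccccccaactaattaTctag

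Gm13341 and Gm13340 passed lower beside the mitochondrial genes. Gm13341 had 50, 39 and 8 UMIs in WT and 3, 6 and 0 in Wnt5a (log2 fold change -3.06 ± 0.63; edgeR, adjusted p = 0.00532, and 0.0628 without WT replicate 7). Gm13340 had 61, 36 and 16 against 12, 13 and 3 (-1.72 ± 0.45, adjusted p = 0.0412), and its call was lost, at adjusted p of 0.0661 to 0.460, when any library other than WT replicate 9 was left out. The adjusted p of Gm13340 without single libraries was 0.0871, 0.0661 and 0.355 for Wnt5a replicates 10, 11 and 12 and 0.460 and 0.0737 for WT replicates 7 and 8. Gm13339 had 38, 51 and 2 against 8, 3 and 3 UMIs, groups that overlap, and did not pass (-2.27 ± 0.63, adjusted p = 0.0755; 8.26e-04 without WT replicate 9). Levels of these copies and of their mitochondrial sources are therefore uncertain one against the other. mt-Co2, the gene matched by Gm13341, was not among the genes counted.

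mt-Nd5 (ENSMUSG00000064367, chrM:11742-13565) had the smallest p. It passed the filter on low counts only through the WT OBC libraries. It was at 1763, 1982 and 752 CPM in WT and 224, 228 and 72.9 CPM in Wnt5a, which are 46, 59 and 8 UMIs against 4, 4 and 1. Its log2 fold change was -3.25 ± 0.56, a 9.51-fold lower level (edgeR, adjusted p = 5.46e-04). mt-Nd3 (chrM:9459-9806) was at 1303, 1008 and 376 CPM against 112, 114 and 72.9 CPM, or -3.36 ± 0.62 (adjusted p = 9.31e-04). Both genes encode membrane subunits of complex I, and in both each WT library was above each Wnt5a library. For mt-Nd5 this separation is partly set by the filter and is no separate support.

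mt-Nd1 (chrM:2751-3707) was at 8625, 14074 and 4325 CPM in WT and 2349.8, 2389 and 1166 CPM in Wnt5a, a log2 fold change of -2.36 ± 0.45 (edgeR, adjusted p = 0.00134). mt-Nd5, mt-Nd3 and mt-Nd1 kept their calls without any 1 library, with adjusted p of at most 0.0446. mt-Nd2 (chrM:3914-4951) was at 5175, 7020.0 and 1504 CPM against 1175, 1081 and 510.0 CPM (-2.49 ± 0.51, adjusted p = 0.00532). mt-Nd4 (chrM:10167-11544) was at 11001, 8162 and 5266 against 3581, 2503 and 1311 CPM (-1.86 ± 0.45, adjusted p = 0.0210). These complex I genes showed no overlap between groups, and WT replicate 9 was the lowest WT library for each. Without Wnt5a replicate 12, WT replicate 7 or WT replicate 8, the adjusted p of mt-Nd2 was 0.0727, 0.0628 and 0.0737, and that of mt-Nd4 was 0.209, 0.157 and 0.0737. For mt-Nd4 it was also 0.0744 without Wnt5a replicate 11.

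mt-Cytb (chrM:14145-15288), the cytochrome b of complex III, was at 9276, 8431 and 2821 CPM in WT and 2462, 2446 and 1239 CPM in Wnt5a (log2 fold change -1.91 ± 0.44; edgeR, adjusted p = 0.0122). mt-Rnr1 (chrM:70-1024) was at 19166, 25326 and 10907 against 7609, 5974 and 3059.9 CPM (-1.89 ± 0.51, adjusted p = 0.0459). Neither gene's groups overlapped. The call of mt-Cytb was lost without Wnt5a replicate 12, WT replicate 7 or WT replicate 8 (adjusted p = 0.143, 0.104 and 0.0852). That of mt-Rnr1 was lost without those libraries (0.349, 0.104 and 0.296) and without Wnt5a replicate 11 (0.142).

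mt-Rnr2 (chrM:1094-2675), the most abundant of these transcripts, changed less. It was at 107176, 96869.5 and 88199 CPM in WT and 62381, 65540.2 and 26956 CPM in Wnt5a, groups that do not overlap, with a log2 fold change of -1.03 ± 0.52 that did not pass (edgeR, adjusted p = 0.580). mt-Co1 (chrM:5328-6872) was at 2453, 1344 and 1128 against 951, 796 and 510.0 CPM (-1.27 ± 0.40, adjusted p = 0.150). Of the transfer RNAs, named after their values were seen, mt-Ta had 8, 11 and 3 UMIs against 0, 1 and 1 (-3.07 ± 1.01, adjusted p = 0.186), and mt-Tp, the most abundant, had 73, 73 and 28 against 29, 41 and 5 (-0.95 ± 0.42, adjusted p = 0.457).

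**Figure D3:**
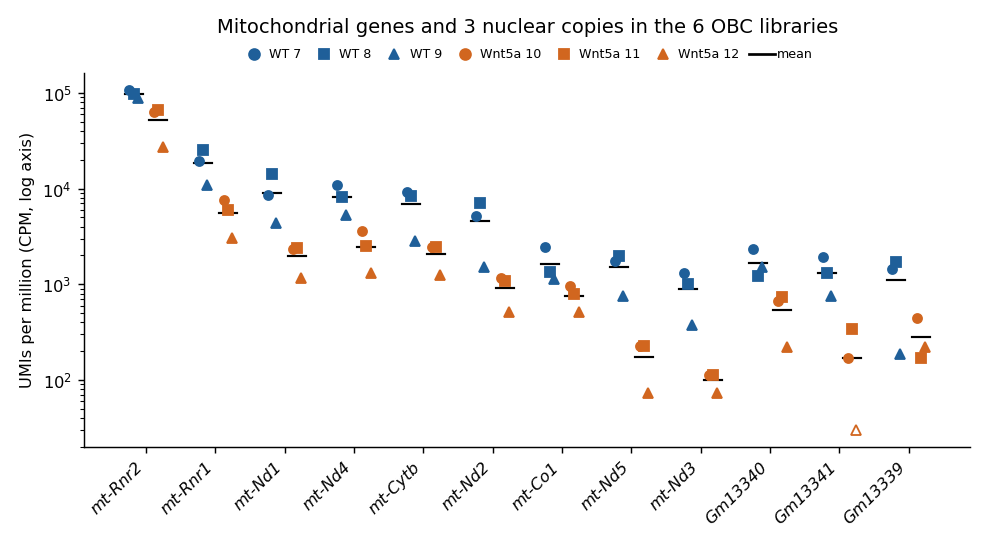
CPM (log axis) of 9 mitochondrial genes and 3 nuclear copies in each OBC library, with WT replicates in blue, Wnt5a replicates in orange and group means as bars; the open symbol at the lower edge is a library with 0 UMIs. For the 9 mitochondrial genes every orange symbol lies below every blue symbol, with WT replicate 9 and Wnt5a replicate 12 usually the lowest of their groups, and for Gm13339 WT replicate 9 lies among the Wnt5a libraries.

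Together the 27 mitochondrial genes counted took 17.1%, 17.1% and 12% of UMIs in the WT libraries and 8.39%, 8.47% and 3.57% in the Wnt5a libraries. Means were 15.4 ± 2.96% (SD, n = 3) and 6.81 ± 2.81%, and the groups did not overlap. The exact two-sided permutation test gave p = 0.1, the smallest that 3 against 3 libraries allow, and 0.3 after Benjamini-Hochberg adjustment over 6 shares. Within these UMIs, mt-Rnr2 made up 62.6%, 56.8% and 73.7% in WT and 74.3%, 77.4% and 75.5% in Wnt5a. Protein-coding genes made up 23.2%, 24.9% and 13.7% against 13.1%, 11.5% and 13.7%. By this make-up WT replicate 9 resembled the Wnt5a libraries, while its total mitochondrial share did not fall among theirs. Shares of single libraries carry Clopper-Pearson intervals at 95% confidence, for example 11.3 to 12.6% for WT replicate 9 and 7.99 to 8.81% for Wnt5a replicate 10, which cover counting error only.

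The signed change in mitochondrial genes differed between OBC and the other niche populations for 8 of the 13, with OBC the lower. The median log2 fold change of the same 13 genes was 0.44 in EC and 0.28 in MSC. The OBC difference minus the mean of the EC and MSC differences passed for 10 of 1099 genes, all of them lower (0.910%), and 8 of these are mitochondrial. No gene passed higher by edgeR, DESeq2 or limma voom (45 by edgeR at an unadjusted p under 0.05). The 10 genes are mt-Nd5, mt-Nd3, mt-Nd1, mt-Nd4, mt-Cytb, mt-Nd2, mt-Rnr1, mt-Co1, Gm13340 and Gm13341. For mt-Nd5 the difference was -4.06 ± 0.70 (edgeR, adjusted p = 4.69e-04), from -3.25 in OBC, 0.58 in EC and 1.05 in MSC. The count was 5 without Wnt5a replicate 12, 6 without WT replicate 7 and 5 without WT replicate 8. Mitochondrial shares were 12 to 17.1% in WT OBC but 0.95 to 2.26% in WT EC and 1.80 to 2.28% in WT MSC. The OBC difference thus started from a higher level. In Wnt5a the shares were 2.48 to 2.65% in EC and 2.66 to 4.43% in MSC, above their WT ranges and opposite in direction to OBC. A rise in EC or MSC also widens the difference that was tested. For the osteoblast genes the same test did not pass: Col1a1 was at -1.70 ± 0.66 (adjusted p = 0.385), Spp1 at -2.60 ± 1.25 (0.487) and Col1a2 at -1.66 ± 0.62 (0.372). A difference of their change between populations was thus not shown.

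**Figure D4:**
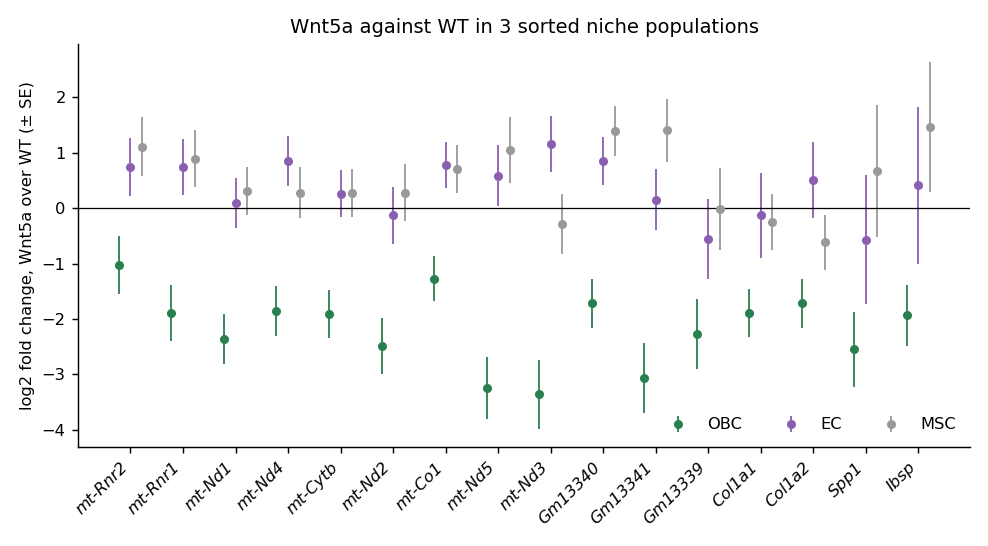
Log2 fold change of Wnt5a over WT (y axis, ± SE from the edgeR model) in OBC (green), EC (purple) and MSC (grey) for mitochondrial genes, nuclear copies and 4 osteoblast genes. In OBC all 16 values are negative, from -3.36 for mt-Nd3 to -1.03 for mt-Rnr2, while EC and MSC values lie nearer to or above 0 and those of Spp1 and Ibsp have wide errors.

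Subunits of the respiratory chain encoded in the nucleus did not follow. Of 66 such genes, 40 were tested, 27 had positive log2 fold changes, the median was 0.22, and none passed by any of the 3 tools (2 higher and 0 lower at an unadjusted p under 0.05). Ndufc1, an accessory subunit of complex I, had 2, 0 and 1 UMIs in WT and 5, 4 and 3 in Wnt5a. Cox6c of complex IV had 3, 7 and 2 against 6, 7 and 8 (log2 fold change 1.11 ± 0.59; edgeR, adjusted p = 0.602).

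Rps9 (ENSMUSG00000006333, chr7:3703993-3706897, plus strand), a protein of the small ribosomal subunit, was the gene that rose. It was at 3258, 2385 and 4607 CPM in WT and 7105, 15532 and 14789 CPM in Wnt5a. All Wnt5a libraries were above all WT libraries, and replicates 11 and 12 were highest. The log2 fold change was 1.81 ± 0.45, a 3.51-fold higher level (edgeR, adjusted p = 0.0257). Its adjusted p was 0.108 and 0.141 without Wnt5a replicates 11 and 12, and 0.1 and 0.238 without WT replicates 7 and 8. In EC and MSC the log2 fold change was 0.03 ± 0.45 and 1.22 ± 0.45, and the test of OBC against both did not pass (adjusted p = 0.480). Without the other 12 niche libraries in the fit it was at 1.63 ± 0.55 (0.0903). Other ribosomal protein genes did not pass. The 22 other small subunit genes had a median of 0.01 with 11 positive (1 lower and 0 higher at an unadjusted p under 0.05), and 29 large subunit genes a median of 0.22 with 18 positive (0 lower and 3 higher). The lower one is Rps28, with 3, 9 and 4 UMIs against 2, 0 and 0 (-2.67, adjusted p = 0.333). Among the large subunit genes, Rpl22 had 12, 21 and 0 UMIs against 22, 21 and 12, and Rplp1 had 20, 25 and 6 against 28, 32 and 18. Reads of Rps9 and its relatives may be split with processed pseudogenes, of which 27 were tested with a median of -0.03. Ribosomal protein genes together held 3.42 ± 0.249% of UMIs in WT and 5.14 ± 0.482% in Wnt5a (SD, n = 3; exact permutation p = 0.1, adjusted 0.3). Rps9 alone made up 0.906 of the 1.72 percentage points between them, and without it the shares were 3.08 ± 0.137% and 3.89 ± 0.241%.

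Stat3 (ENSMUSG00000004040, chr11:100885098-100939540, minus strand), the transcription factor downstream of gp130 cytokines, had 8, 8 and 3 UMIs in WT and 0, 0 and 1 in Wnt5a. As CPM the WT libraries were close together, at 307, 269 and 282. Stat3 passed the filter on low counts only through these libraries, with group means of 137 to 172 CPM in EC and MSC. Their closeness is therefore partly set by the filter and is no separate support. The pooled ratio was 14.1-fold lower in Wnt5a, with an exact counting interval of 2.23 to 584 at 95% confidence. It passed with an adjusted p of 0.0459 (edgeR), and lost the call without Wnt5a replicate 10 or 11 (0.179 and 0.282) and without WT replicate 7 or 8 (0.157 and 0.162). With so few UMIs its size is poorly fixed.

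Genes next in line among the higher ones did not pass in the fit of all niche libraries. Birc5, the mitotic survivin, had 3, 2 and 1 UMIs in WT and 8, 8 and 10 in Wnt5a (log2 fold change 2.39 ± 0.72; edgeR, adjusted p = 0.113). Ier2, an immediate early gene, had 5, 1 and 0 against 8, 7 and 9 (adjusted p = 0.113). Tmem14c, needed for haem synthesis in red cell precursors, had 5, 11 and 5 against 17, 19 and 21 (0.186, and 0.0412 with the OBC libraries alone), Lamtor2, a scaffold of mTORC1 on lysosomes, 16, 27 and 9 against 33, 35 and 26 (0.295), and H3f3b, a histone H3.3 gene, 18, 17 and 2 against 19, 25 and 22 (0.270). Ptpn7, a phosphatase of blood cells, had 3, 5 and 0 against 5, 18 and 9 (0.270), Nop53, a ribosome assembly factor, 2, 0 and 0 against 3, 9 and 2 (0.186), and Kctd20 1, 2 and 0 against 8, 7 and 2 (0.186). In these 8 genes every Wnt5a library was above every WT library in CPM, as in 8.46% of genes tested. The 8 were chosen by small p in these same libraries, so their separation follows largely from that choice and is no separate support. Ptpn7 also passed the filter on low counts only through the Wnt5a OBC libraries. S100a9, a neutrophil granule protein, had 18, 42 and 23 against 54, 66 and 29 UMIs (0.333), and its groups overlapped.

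Blood cell transcripts were present in the sorted OBC, and no gene of these lists passed. Markers of neutrophils summed to 2262, 4031 and 4607 CPM in WT and 6602, 8875 and 5246 CPM in Wnt5a, without overlap, with at most 1 of the 6 markers at 0 in a library. Erythroid markers summed to 34729, 35638 and 65632 CPM against 52367, 84656 and 119846 CPM, with overlap and none of 6 at 0. All 5 tested neutrophil granule genes had positive log2 fold changes with a median of 1.04, and 12 of the 13 tested erythroid genes were positive, with a median of 0.85. Neither list had a call by any of the 3 tools (3 neutrophil genes higher and 0 erythroid genes at an unadjusted p under 0.05). S100a8 was at 1.11 ± 0.44 and Ltf at 1.39 ± 0.57 (edgeR, adjusted p = 0.333 and 0.335). Neutrophil genes were also positive in EC and MSC, with medians of 2.29 and 1.49 over the same members. Haemoglobin took 4.47 ± 1.73% of UMIs in WT and 8.51 ± 3.40% in Wnt5a (exact permutation p = 0.200, adjusted 0.400). Ptprc, a marker of all leukocytes, had 0, 0 and 1 UMIs in WT and 0 in each Wnt5a library. The other leukocyte markers were more frequent, Coro1a with 1, 8 and 2 UMIs against 1, 6 and 5, and Laptm5 with 2, 5 and 0 against 1, 1 and 0. The monocyte and macrophage markers together had 0, 1 and 0 UMIs in WT and 0, 2 and 0 in Wnt5a. Itgam (CD11b), an integrin of neutrophils and macrophages, had 14, 20 and 11 UMIs against 6, 8 and 3, lower in every Wnt5a library though not past the test (log2 fold change -1.17 ± 0.66; edgeR, adjusted p = 0.607). The part of these transcripts in the lower osteoblast and mitochondrial levels was not tested.

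**Figure D5:**
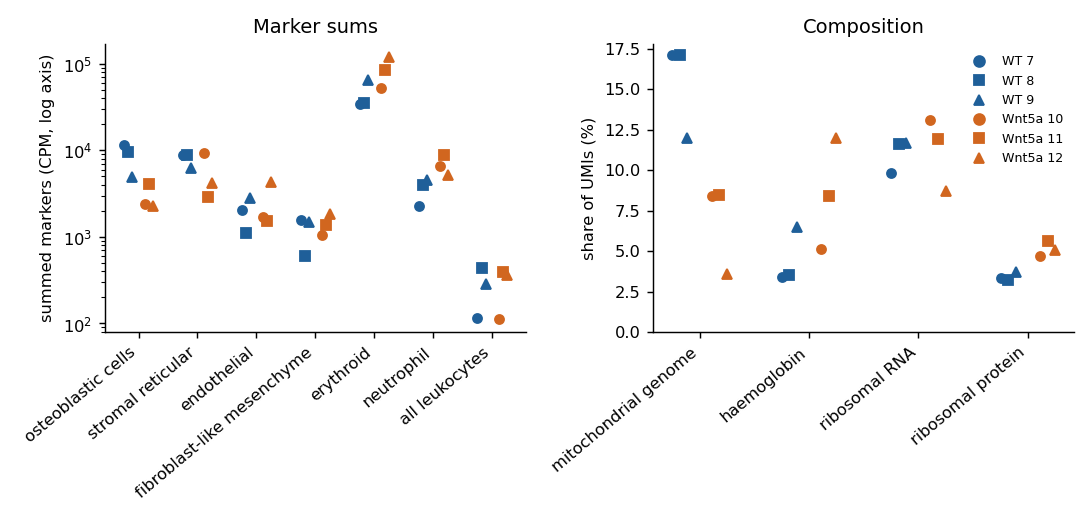
Left, summed CPM (log axis) of fixed marker lists in each OBC library; right, share of all UMIs (%) in 4 transcript classes, with WT replicates in blue and Wnt5a replicates in orange. Osteoblast markers and the mitochondrial share are lower in every Wnt5a library, neutrophil markers and ribosomal protein are higher in every one, and erythroid markers, haemoglobin and ribosomal RNA overlap.

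Stromal reticular genes, which mark the CXCL12-rich marrow stroma close to osteoblasts, did not pass. Of 23, 12 were tested, 10 were negative, the median was -0.57 and none passed by any of the 3 tools (2 lower at an unadjusted p under 0.05). Cxcl12, the chemokine that holds stem cells in the marrow, was the most abundant at 151, 185 and 48 UMIs in WT and 111, 33 and 42 in Wnt5a, a log2 fold change of -0.71 ± 0.39 (edgeR, adjusted p = 0.607). Wnt5a replicate 10 lay among the WT libraries and the others below. Apoe had 10, 9 and 7 UMIs against 2, 0 and 3 (-2.10 ± 0.76, adjusted p = 0.295), and Cxcl14 had 17, 26 and 2 against 5, 5 and 3 (-1.39 ± 0.67, adjusted p = 0.545). Their marker sum was 6206 to 8867 CPM in WT and 2902 to 9287 in Wnt5a. Endothelial markers summed to 1108 to 2821 and 1536 to 4371 CPM, and markers of fibroblast-like mesenchyme to 605 to 1572 and 1063 to 1821 CPM, so both overlapped.

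Genes of the WNT5A pathway were mostly below the filter. Of 45 receptors and non-canonical components, 5 were tested, all with negative log2 fold changes and a median of -0.98; none passed by any of the 3 tools or at an unadjusted p under 0.05. They are the GTPases Rac1, with 3, 4 and 0 UMIs in WT and 0, 1 and 1 in Wnt5a, Cdc42, with 5, 9 and 0 against 4, 1 and 0, and Rhoa, with 2, 3 and 0 against 1, 1 and 0, besides Jun and the calcineurin gene Ppp3ca. The receptor Ryk had 2, 6 and 1 UMIs against 1, 1 and 1, Fzd1 had 2, 5 and 0 against 0 in each, and Ror1 and Ror2 had none in any OBC library. Of actin regulators, the theme the series names for blood stem cells, 33 of 83 were tested, with 14 positive, a median of -0.09 and none past the test by any of the 3 tools (3 higher and 1 lower at an unadjusted p under 0.05). Those 4 are Vasp, a filament elongation factor, at 1.61 ± 0.64 on the log2 scale (edgeR, adjusted p = 0.333), the Arp2/3 subunit Actr2 at 1.71 ± 0.69 (0.333), Tpm3 at 1.30 ± 0.63 (0.544) and Tpm1 at -1.59 ± 0.63 (0.333), the last 2 being tropomyosins that coat filaments. Interferon response genes had 7 of 8 tested members negative with a median of -0.35, led by Bst2 (tetherin) with 5, 7 and 1 UMIs against 1, 1 and 0. None passed by any of the 3 tools (1 lower at an unadjusted p under 0.05). The same 8 members were also mostly negative in EC (7, median -0.29) and MSC (8, median -0.68).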

How the data were processed

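Sorted OBC, EC and MSC were profiled by RNA sequencing with UMIs, and per the labels' protocols barcoded cDNA was pooled before library preparation. The deposited values are whole-number counts of UMIs per gene, with no normalization. Per the submitters' processing notes STAR, featureCounts, mm10 and GRCm38 were used. The annotation release, the collapsing of UMIs and the use of strand in counting are not stated in those sources, so overlapping, antisense and near-identical genes are uncertain. All value columns matched 1 sample, and 221 of 18194 genes had no symbol.

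Groups came from the labels. CPM is UMIs over the library's gene total, without the 28 spike-in entries. edgeR 4.0.16 (R 4.3.3; TMM scaling, filterByExpr with minimum count 10 and minimum total 15, robust quasi-likelihood test) was fitted to the 18 niche libraries with 6 group means, and p-values were adjusted by Benjamini-Hochberg over 1099 genes at 0.05. The code was checked on simulated data. The common biological coefficient of variation was 0.318, the median SE of an OBC log2 fold change was 0.74, and no pair of OBC libraries agreed within sampling noise. Alternatives were other scalings, filters, tools (DESeq2 1.42.0, limma 3.58.1) and leaving out each library. Promoters came from RefSeq and other annotation from GENCODE M21, with alignments in Biopython 1.88.

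The members and gene lists were chosen with earlier results of these data known. Genes are named by this rule: the markers Col1a1, Ibsp and Spp1; up to 15 genes past the test in each direction, filled to 10 by unadjusted p; up to 4 tested members of each of 40 lists by smallest p; and up to 10 past the test of OBC against EC and MSC. Sparc, Mgp, Serpinf1, Gm13339, Jun, Col3a1, Dcn, mt-Rnr2, the transfer RNAs and genes under the filter fall outside it and were named after their values were seen.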

Additional observations from a re-analysis of the deposited data

Results flagged for a closer look

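The change from WT to Wnt5a in OBC differed from the mean change in EC and MSC for 10 genes by the edgeR test of that difference, and in each the OBC value was the lower one. All 10 are mitochondrial genes or nuclear copies of mitochondrial sequence, and the differences are on the log2 scale with their SE. Among complex I subunits the difference was -4.06 ± 0.70 for mt-Nd5 (edgeR, adjusted p = 4.69e-04), -3.79 ± 0.73 for mt-Nd3 (0.00155), -2.56 ± 0.55 for mt-Nd1 (0.00506), -2.57 ± 0.62 for mt-Nd2 (0.0246) and -2.42 ± 0.55 for mt-Nd4 (0.0107). It was -2.17 ± 0.53 for mt-Cytb (0.0225), -2.01 ± 0.50 for mt-Co1 (0.0225) and -2.70 ± 0.62 for the ribosomal RNA mt-Rnr1 (0.0107). For the nuclear copies it was -2.84 ± 0.55 for Gm13340 (0.00155) and -3.83 ± 0.75 for Gm13341 (0.00251). Of these mitochondrial genes, mt-Co1 did not pass for OBC in the fit of all niche libraries (-1.27; edgeR, adjusted p = 0.150). In that fit its log2 fold change was 0.78 in EC and 0.70 in MSC. mt-Co1 was called when the 6 OBC libraries were fitted alone.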

How the results depend on the processing

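The 14 genes past the test kept their direction in every alternative in which they were tested, and mt-Nd5, mt-Nd3 and mt-Nd1 kept their calls in all 17, 16 and 17 alternatives run. Counts of lower genes were 8 with plain totals as library sizes, 5 with edgeR's glmTreat against a 1.5-fold change, 0 with mitochondrial genes and nuclear copies removed, and 3 to 15 when 1 library was left out. Counts of higher genes were 0 with glmTreat, 0 with those genes removed and 0 to 1 without 1 library. DESeq2 and limma voom each called 10 lower and 1 higher. The test of OBC against EC and MSC called 5 to 13 genes without 1 library. The causes were not tested. Plain totals moved the median of all genes to 0.10 (log2), with 493 negative and 606 positive. Besides single libraries, glmTreat ended the calls of Col1a1, Col1a2, Spp1, Stat3, Rps9, mt-Cytb, mt-Nd4, mt-Rnr1 and Gm13340. Plain totals ended those of Col1a2, Spp1, Stat3, mt-Rnr1 and Gm13340, and totals over all genes those of Col1a2, Stat3 and mt-Rnr1. Limma voom did not call Col1a2, Spp1 and Gm13340, and DESeq2 did not call Col1a2 and gave no adjusted p for Spp1 and Stat3. Both other filters ended the calls of Stat3 and Gm13340 and added Gm13339, RLE scaling that of Stat3, and the fit of OBC alone that of Rps9. With Rps9 left out, a choice made after seeing the data, the difference in ribosomal protein share was 0.810 percentage points. The difference in immunoglobulin share, 0.00832 percentage points, ranged from -0.00746 to 0.0248 without 1 library (-0.00312 without WT replicate 8), and that in ribosomal RNA from -0.757 to 1.44 (-0.137 and -0.440 without Wnt5a replicate 11 and WT replicate 7). No paired analysis was run, because the niche replicate numbers are all different and the labels state no link between libraries. Scaling to spike-ins was not run, since no OBC library reached 20 spike-in UMIs. Depth limits the comparison, since 3 UMIs correspond to 101 to 282 CPM and most genes were under the filter.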
